A study of Mus musculus with 2 samples.

Results

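The genes described here are 13 integrin alpha chains, 7 beta chains and 14 cytoplasmic focal adhesion proteins, 34 in all, of the 52406 gene symbols in the table. They were chosen by name, and each of the 34 was found as 1 row. The data are RNA-seq profiles of primary pericytes sorted from mouse tumours on the C57BL/6 strain and cultured on gelatin to passages 10 to 12. There were 2 libraries, each from 1 culture, 1 from cells labelled Cd248 null (genotype knockout type) and 1 from cells labelled Cd248 heterozygote (hetero type). Cd248 encodes endosialin, a transmembrane lectin of pericytes and stromal fibroblasts. The tumour model, the sorting markers, the number of mice and the deleted part of the gene are not stated in the labels used here. With 1 library per genotype there is no spread between cultures, so no difference below was tested, and each describes these 2 cultures.

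Integrins are cell surface receptors made of an alpha and a beta chain that hold cells to the extracellular matrix, and focal adhesions are the protein assemblies that join their short cytoplasmic tails to the actin cytoskeleton. The alpha chain sets most of the ligand choice, which runs from collagens and laminins to proteins with the RGD tripeptide such as fibronectin and vitronectin. Talins and kindlins bind the beta tail and switch the receptor on, the ILK, PINCH and parvin complex and the scaffold proteins build up the plaque, and vinculin, zyxin and the tensins link it to actin. Pericytes, the mural cells of small vessels, use these receptors to hold to the vascular basement membrane.

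Levels are FPKM, fragments scaled to transcript length and to the library total, as deposited. The totals behind them were 19786203 reads in the null culture and 23982269 in the heterozygous culture. The read numbers behind single genes could be worked back from the decimals of the table, and the intervals below are 95% intervals of those reads that cover counting error only. The columns were assigned to genotypes by the last letter of their names, and every direction rests on that. Cd248 itself had 3 reads in the null culture (FPKM 0.0592) and 1288 in the heterozygous culture (FPKM 20.98). Of 12 pericyte markers, 8, among them Cd248 itself, had an FPKM of 1 or more in at least 1 culture. Of these 8, Cd248 and Tbx2 were under it in the null culture, and Des and Notch3 in the heterozygous culture. The mural genes Rgs5, Kcnj8, Abcc9 and Anpep stayed below it in both cultures, and Abcc9 was listed at 0. Differences are log2 ratios, null over heterozygous, with 1 added to each FPKM. A gene was compared when its FPKM was 1 or more in either culture, and a difference of 2-fold or more on that scale was counted.

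The promoters of the 3 alpha chain genes with the farthest ratios for which RefSeq (GRCm38.p6) gives a window are shown first, 250 bases before to 50 bases after the annotated start, on the gene's strand. Capitals mark the GC box GGGCGG on either strand. Other motifs were searched as well, and none of them matched these windows.

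Itga3, chr11:95076665-95076964, minus strand: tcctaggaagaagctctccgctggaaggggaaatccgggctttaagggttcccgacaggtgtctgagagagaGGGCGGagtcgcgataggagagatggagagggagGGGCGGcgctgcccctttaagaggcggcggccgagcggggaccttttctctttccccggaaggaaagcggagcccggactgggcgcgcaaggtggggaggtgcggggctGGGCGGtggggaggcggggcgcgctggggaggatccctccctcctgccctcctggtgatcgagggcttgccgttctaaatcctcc
Itga8, chr2:12301895-12302194, minus strand: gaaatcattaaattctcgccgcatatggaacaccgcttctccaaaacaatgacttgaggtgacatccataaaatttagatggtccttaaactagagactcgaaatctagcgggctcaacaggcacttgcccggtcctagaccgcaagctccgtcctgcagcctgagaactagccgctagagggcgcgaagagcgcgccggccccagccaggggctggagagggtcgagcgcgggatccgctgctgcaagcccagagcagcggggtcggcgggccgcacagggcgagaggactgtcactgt
Itga11, chr9:62677605-62677904, plus strand: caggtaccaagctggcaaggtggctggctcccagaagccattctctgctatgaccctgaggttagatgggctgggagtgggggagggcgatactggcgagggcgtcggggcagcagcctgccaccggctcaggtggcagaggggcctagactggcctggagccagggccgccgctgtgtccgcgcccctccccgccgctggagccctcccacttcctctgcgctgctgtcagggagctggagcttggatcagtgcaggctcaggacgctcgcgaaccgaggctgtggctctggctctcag

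The Itga3 window held 3 GC boxes and had a GC content of 66.7%. The Itga8 and Itga11 windows held none, at 59% and 68% GC, which says only that these letters are not in these windows. Among the 32851 RefSeq windows, 35.7% held GGGCGG, as did 18 of the 32 member windows. Those 18 windows belong to 16 of the 26 members with a window. The AP-1 letters TGANTCA were in 7.81% of all windows and in those of Itga3 (a second start), Itga9 and Zyx. The TEAD letters GGAATG were in 14.7% of all windows and in those of Itga10, Itgb1 and Vcl. The letters CCAAT were in 37.4% of all windows and in 6 of the 32 member windows, from 5 members. TATAAA was in 13.6% of all windows and, among the members, in that of Lims1 alone. The CArG box of serum response factor was in 1.63% of all windows and in those of Fermt2, Itgb6 and Vcl. Both strands were searched for each motif, and a CArG box can hold the letters CCAAT or TATAAA. Median GC content was 62.5% over the 32 member windows and 52.7% over all windows.

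Of the 34 genes, 27 were expressed at the level needed for comparison. Among these, 2 were counted as higher in the null culture (Itga11 and Tln2), 3 as lower (Itga3, Itga7 and Itga8) and 22 within 2-fold. Over all 12773 genes compared, 6.84% were counted as higher and 6.88% as lower. In either direction it was 13.7% of all genes compared. Of the 5 counted members, 4 were alpha chains, and no expressed beta chain passed the 2-fold mark. These counts are small, and no difference from the shares over all genes was tested. At such shares, 5 expressed beta chains are too few to set them apart from the alpha chains. The median log2 ratio was -0.28 over the 27 members, -0.33 over the 10 expressed alpha chains, 0.03 over the 5 expressed beta chains and -0.19 over the 12 expressed cytoplasmic proteins, beside 0.03 over all genes compared. The members closest to the mark on its inner side were Tns1 at 0.97, Tns3 at -0.92 and Bcar1 at -0.89, and the nearest outside it was Itga8 at -1.53.

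**Figure D1:**
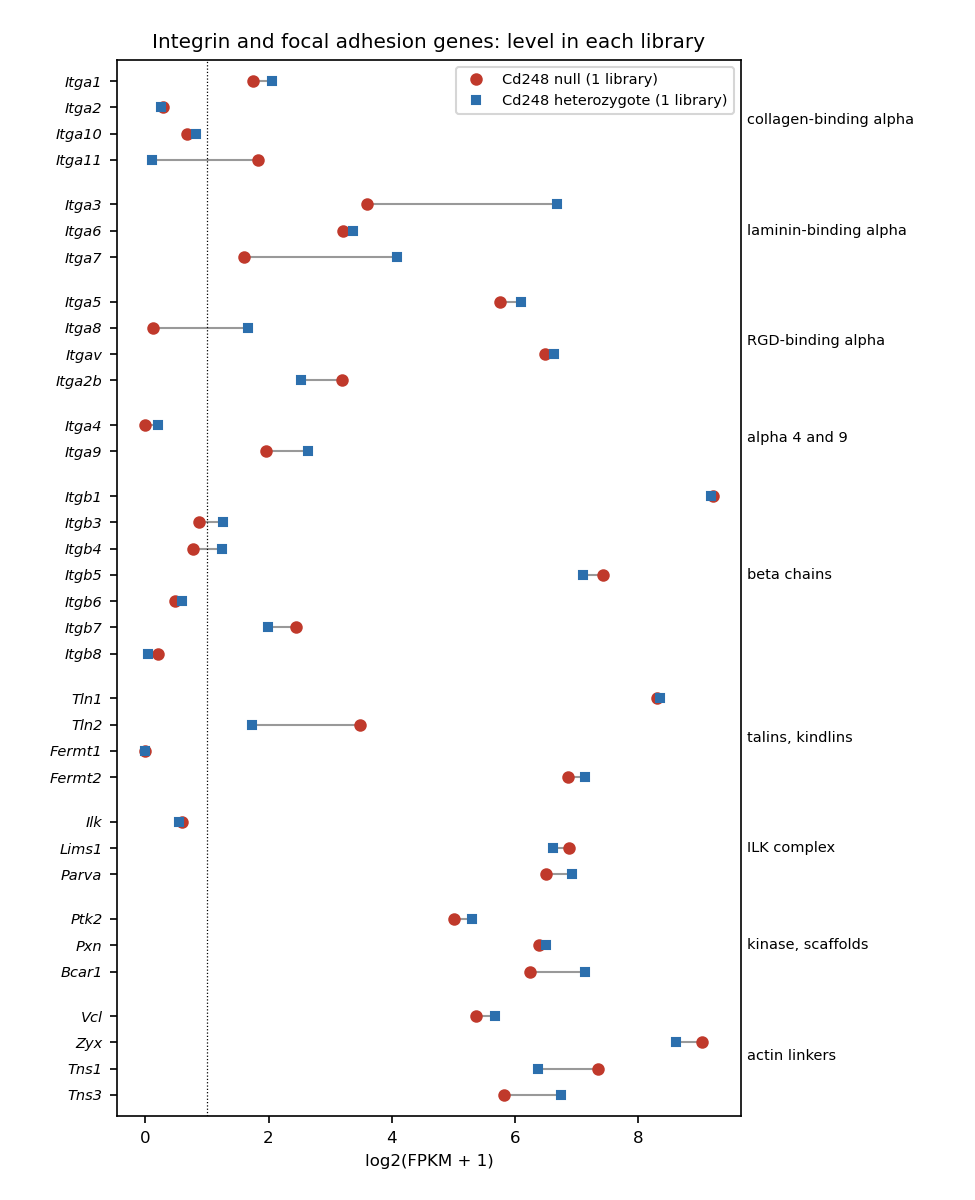
Level of each of the 34 genes as log2(FPKM + 1) in the null culture (circles) and the heterozygous culture (squares), grouped by role, with a dotted line at an FPKM of 1. Most pairs lie close together, from Itgb1 at 593 and 581 down to Fermt1 at 0 in both, while Itga3, Itga7, Itga8, Itga11 and Tln2 are far apart.

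On the log2(FPKM + 1) scale the laminin-binding alpha chains held the largest difference among the members. Itga3, which pairs with Itgb1 into a laminin receptor found in epithelia and other cells, had an FPKM of 11.1 in the null culture and 102 in the heterozygous culture. These levels rest on 596 and 6663 reads. The heterozygote level was 9.22-fold higher, with a counting interval of 8.48 to 10.0. Itga3 had the highest FPKM of the alpha chains in the heterozygous culture and came after Itgav and Itga5 in the null culture.

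Itga7, the main laminin receptor chain of muscle and also used by vascular smooth muscle, followed the same direction. It had an FPKM of 2.03 in the null culture and 16.0 in the heterozygous culture, from 111 and 1059 reads. The heterozygote level was 7.87-fold higher, with an interval of 6.47 to 9.66. Itga6, the remaining chain of this group, which pairs with Itgb1 or Itgb4, stood at 8.23 and 9.35, a fold of 1.14 with an interval of 0.990 to 1.30. For Itga6 the counting interval includes equal levels.

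Itga11 went the other way among the collagen receptors. It pairs with Itgb1 into a receptor for fibrillar collagen that is known from fibroblasts and other mesenchymal cells. It had an FPKM of 2.55 in the null culture and 0.0776 in the heterozygous culture, from 217 and 8 reads. The null level was 32.9-fold higher, with an interval of 16.4 to 77.1. Its level was low in absolute terms, and with a pseudocount of 5 its log2 ratio was 0.57, within the 2-fold mark, against 1.72.

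The other collagen receptor chains were close between the libraries. Itga1, a receptor chain for basement membrane and fibrillar collagens that is known from smooth muscle, had 2.38 in the null culture and 3.17 in the other. Itga2, the platelet and epithelial collagen receptor chain, had 0.213 and 0.187, and Itga10, the cartilage chain, had 0.594 and 0.763, both under the level needed for comparison. Of the exonic bases annotated to Itga10, 33.5% also lie in exons of the gene Gm42957, so its reads are uncertain.

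The abundant RGD-binding chains differed little. Itgav, the shared alpha chain of the vitronectin receptors, had an FPKM of 88.7 in the null culture and 98.2 in the heterozygous culture. Itga5, the alpha chain of the classical fibronectin receptor, had 53.0 and 68.0, a fold of 1.28 with an interval of 1.24 to 1.33. Both are common on cells in culture.

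Itga8, a receptor chain for nephronectin found on mesenchyme and smooth muscle, was close to absent from the null culture. It had 4 reads there, an FPKM of 0.0955 with an interval of 0.0260 to 0.245. In the heterozygous culture it had 110 reads, an FPKM of 2.17 with an interval of 1.78 to 2.61. The heterozygote level was 22.7-fold higher, with an interval of 8.61 to 84.7, and with a pseudocount of 5 its log2 ratio was -0.49, within the mark.

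Itga2b, the alpha chain of the platelet fibrinogen receptor, had an FPKM of 8.15 in the null culture and 4.80 in the heterozygous culture, from 178 and 127 reads. Its only partner, Itgb3, stood at 0.826 and 1.39. Of 6 megakaryocyte markers, Pf4, Ppbp, Gp9 and Gp6 were listed at 0 in both libraries, and Gp1bb had 6.04 and 1.47. Summed over that list, which includes Itga2b, the FPKM came to 14.2 in the null culture and 6.27 in the other.

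The chains that bind VCAM-1 and related ligands were low. Itga4, best known from leukocytes and from developing mesenchyme, was listed at 0 in the null culture, and its heterozygote value of 0.148 corresponds to 13 reads. Itga9, a receptor chain for tenascin-C, had 2.88 and 5.26, and the heterozygote level was 1.83-fold higher with an interval of 1.45 to 2.31.

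**Figure D2:**
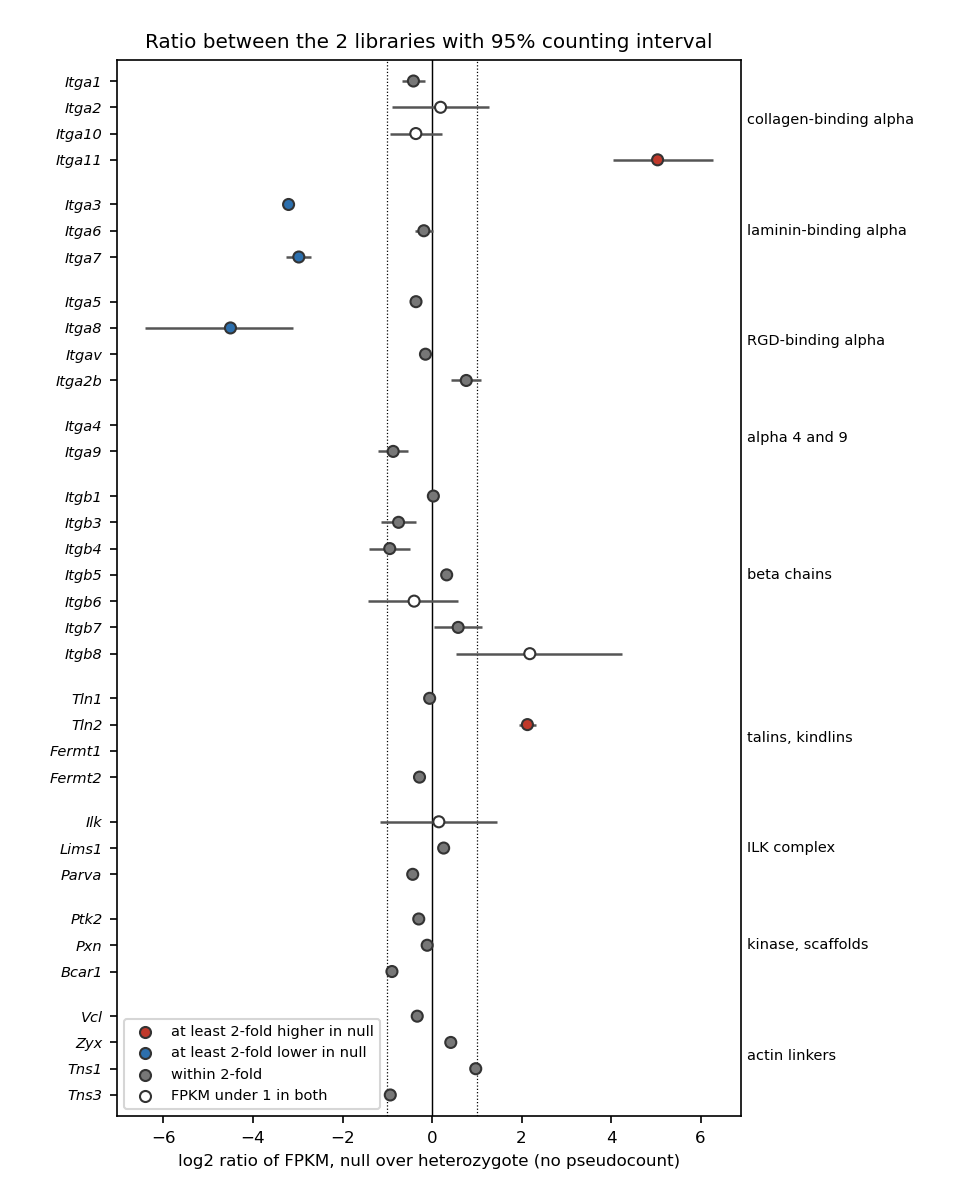
Log2 ratio of FPKM, null over heterozygote and without a pseudocount, for the 32 genes with reads in both libraries. Points are single ratios, lines are 95% intervals for counting error alone, and dotted lines mark 2-fold. The intervals of Itga3, Itga7, Itga8, Itga11 and Tln2 lie wholly past 2-fold, and open points are genes under an FPKM of 1 in both libraries.

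Among the beta chains, Itgb1, the common partner of 12 alpha chains, was the most abundant of all 34 genes, with an FPKM of 593 in the null culture and 581 in the heterozygous culture. Its ranks among the 12773 compared genes were 169 and 181. Reads were plentiful, at 23693 and 28142, and the fold was 1.02 with an interval of 1.003 to 1.04. Itgb5, which pairs with Itgav into a vitronectin receptor, came next at 171 and 137. Its null level was 1.25-fold higher, with an interval of 1.21 to 1.31. Thus the main beta chains were nearly even while some of their alpha partners differed many-fold.

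The remaining beta chains were near or under an FPKM of 1, apart from Itgb7, the partner of Itga4 and Itgae on lymphocytes, which had 4.46 and 2.98 from at least 68 and 55 reads. Itgb3, the partner of Itgav in vessels and of Itga2b in platelets, had 83 reads in the null culture and 169 in the other. Itgb4, the hemidesmosome chain, had 0.707 and 1.36, and the heterozygote level was 1.93-fold higher with an interval of 1.40 to 2.67. Itgb6, an epithelial chain, had 0.389 and 0.513. Itgb8, which with Itgav activates latent TGF-beta, had 0.158 and 0.0348, from 15 and 4 reads.

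The alpha chain pool therefore differed in make-up between the cultures. The 13 alpha chains summed to an FPKM of 180 in the null culture and 310 in the heterozygous culture. Laminin-binding chains held 11.9% of that sum in the null culture and 41.1% in the heterozygous culture. RGD-binding chains held 83.3% and 55.8%, and collagen-binding chains 3.19% and 1.35%. The lower RGD share was not a lower level, as the summed FPKM of these chains was 150 and 173. That of the laminin-binding chains was 21.4 and 128. The collagen-binding chains summed to 5.74 and 4.20. Among them Itga11 was lower in the heterozygous culture (2.55 and 0.0776), while Itga1 (2.38 and 3.17) and Itga10 (0.594 and 0.763) went the other way. Itgb1 stood 3.45-fold above the summed FPKM of its 12 alpha partners in the null culture and 1.90-fold above it in the heterozygous culture. These are shares of RNA per unit length, and no protein was measured.

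Which alpha chain led depended on the transcript length used. The lengths in the authors' FPKM fell within 1 base of the mean length of all annotated transcripts for 27 of the 32 members with reads in both libraries, and that mean takes in short partial transcripts. Itga5 was among the other 5, at a length of 4399 bases, near its longest transcript (4415) and not its mean (2446). Itgav stood at its mean of 2405 bases, against a longest transcript of 7054. Their order in the deposited FPKM therefore compares unlike kinds of length. At the deposited lengths Itgav held 49.3% of the alpha pool in the null culture and Itga5 29.5%. In the heterozygous culture Itga3 led with 33.0% before Itgav with 31.6%. Per longest annotated transcript, Itga5 led in both, with 51.8% and 37.6%, and Itgav held 29.6% and 18.6%. The share of Itga3 was 6.07% and 31.8% on that scale. Ratios of a gene between libraries do not depend on the length.

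**Figure D3:**
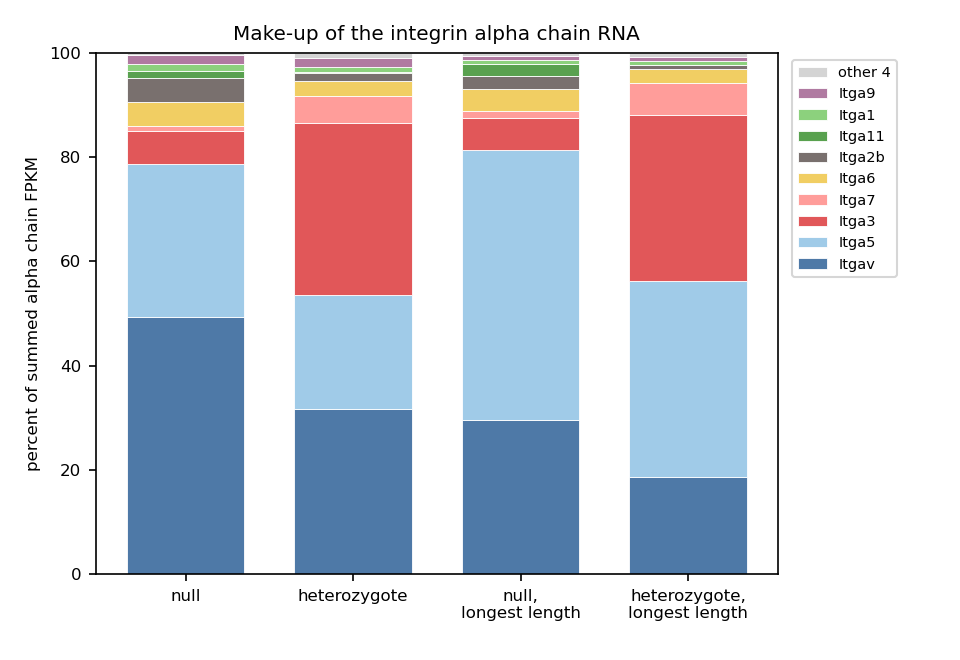
Percent of the summed FPKM of the 13 alpha chains held by each, for the null and the heterozygous culture, first at the lengths of the deposited FPKM and then per longest annotated transcript. Itga3 takes 6.17% of the null and 33.0% of the heterozygote bar, and the order of Itgav and Itga5 turns between the length scales. The deposited length of Itga5 was already near its longest transcript, while that of Itgav was its mean.

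Integrins work as pairs, and 24 heterodimers are known in mammals. At an FPKM of at least 1 for both chains, 9 pairs were present in the null culture and 12 in the heterozygous culture, with 8 in both. The pair of Itga11 and Itgb1 passed in the null culture alone. Itga8 with Itgb1, Itgav with Itgb3, Itga2b with Itgb3 and Itga6 with Itgb4 passed in the heterozygous culture alone. For the last 3 of these the chain with the lower level was close to the minimum in both libraries, at 0.826 and 1.39 for Itgb3 and 0.707 and 1.36 for Itgb4. With a minimum of 5 the counts were 5 and 7, and the pairs of Itga7 and Itga9 with Itgb1 were those that passed in the heterozygous culture alone.

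Of the proteins that switch integrins on, Tln2 was the exception to an even picture. It encodes talin-2, the second talin, known best from muscle and brain. It had an FPKM of 10.2 in the null culture and 2.33 in the heterozygous culture, from 1102 and 305 reads. The null level was 4.38-fold higher, with an interval of 3.85 to 4.99. Tln1, the general talin, was far more abundant and nearly even, at 315 and 327. Fermt2, the kindlin of mesenchymal cells, had 116 and 140, and Fermt1, the epithelial kindlin, was listed at 0 in both libraries.

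In the ILK, PINCH and parvin complex, Lims1, which encodes PINCH-1, had an FPKM of 117 in the null culture and 97.9 in the heterozygous culture. Parva, which encodes alpha-parvin, had 90.1 and 121.5. Ilk, the pseudokinase at the centre of the complex, was listed at only 0.518 and 0.466, from 11 and 12 reads. Of the 2744 exonic bases annotated to Ilk, 89.7% also lie in exons of Taf10 and Rrp8 on the opposite strand, and those genes had FPKM values of 68.0 and 83.5 (Taf10) and 41.3 and 38.8 (Rrp8). The part of that overlap in the low Ilk value was not tested, and whether the counting used strand is not stated in the labels used here.

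The kinase and scaffold genes were all lower in the null culture and within 2-fold. Ptk2, which encodes focal adhesion kinase, had an FPKM of 31.3 in the null culture and 38.5 in the heterozygous culture. Pxn, the scaffold paxillin, had 83.2 and 89.7. Bcar1, which encodes the stretch-sensing scaffold p130Cas, had 75.3 and 140, from 4106 and 9260 reads. The heterozygote level of Bcar1 was 1.86-fold higher, with an interval of 1.79 to 1.93.

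Among the actin linkers the tensins went in opposite directions. Tns1, which encodes tensin-1 of fibrillar adhesions, had an FPKM of 162 in the null culture and 82.3 in the heterozygous culture. Tns3 had 55.6 and 106. The null level of Tns1 was 1.97-fold higher (interval 1.90 to 2.03) and the heterozygote level of Tns3 1.91-fold higher (interval 1.83 to 1.99). With the columns scaled to an equal sum, the log2 ratio of Tns1 was 1.05, past the 2-fold mark, against 0.97.

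Tns1 lies on chromosome 1 and Tns3 on chromosome 11, whose genes had median log2 ratios of 0.41 (748 genes) and -0.27 (1074 genes). Itga3, Itga2b, Itgb3 and Itgb4 also lie on chromosome 11. The part of these chromosome-wide shifts in the single values was not tested, and after subtracting each chromosome's median the same 5 members were counted. That step brought Tns1 from 0.97 to 0.56 and Tns3 from -0.92 to -0.65. Zyx, which encodes the mechanosensitive LIM protein zyxin, was the second most abundant member, at 525 and 393, a fold of 1.34 with an interval of 1.31 to 1.37. Vcl, which encodes vinculin, had 40.1 and 50.5, and 25.5% of its exonic bases also lie in exons of Ap3m1.

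**Figure D4:**
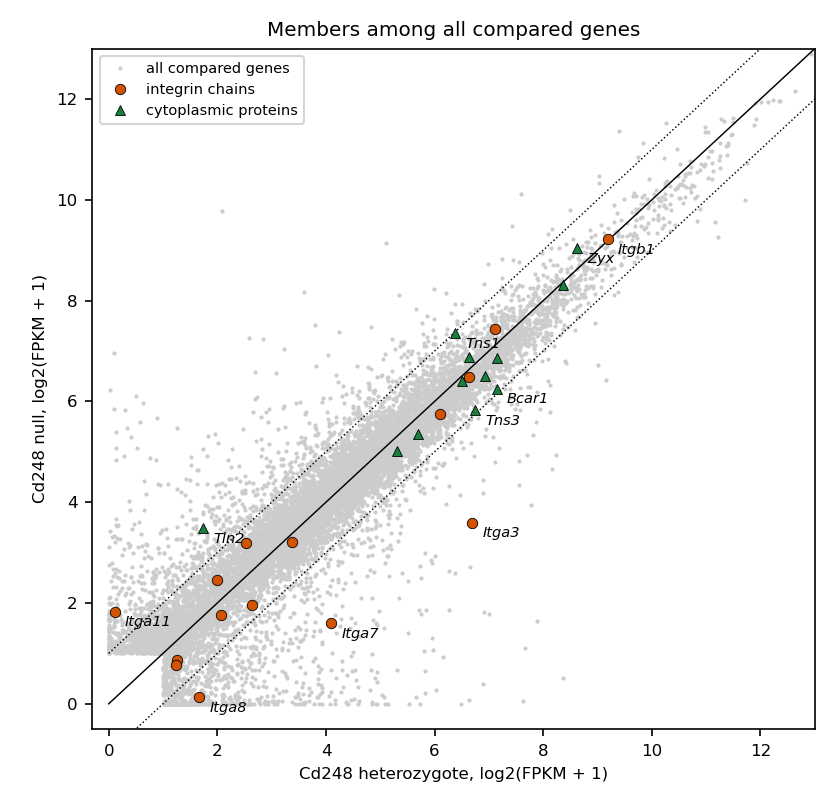
Log2(FPKM + 1) of the null culture (vertical) against that of the heterozygous culture (horizontal) for the 12773 compared genes (grey), with the expressed integrin chains as circles and the cytoplasmic proteins as triangles. Itga3, Itga7 and Itga8 lie below the lower 2-fold line, Itga11 and Tln2 above the upper line, and Itgb1 on the diagonal.

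Lists of markers for other kinds of cell were also unequal between the cultures. Beside the counts below, 6.84% of all genes compared were counted as higher and 6.88% as lower. Of 12 epithelial and mesothelial markers, 9 were expressed, of which 8 were counted as lower for null and only Muc1 as higher. Their summed FPKM was 20.3 in the null culture and 1194 in the heterozygous culture, and Epcam was listed at 0 in both. The lowest ratios there were those of Upk3b (0.430 and 330.2), Krt18 (0.0361 and 196) and Upk1b (0.314 and 118). Lrrn4 and Krt8 were listed at 0 in the null culture and at 29.5 and 0.531 in the heterozygous culture. Krt8 was thus under the level needed for comparison. Of 9 Schwann cell markers, 5 were expressed and 3 of them lower, with sums of 25.99 and 50.2. Sox10 and Erbb3 were at 0 in the null culture and at 0.0307 and 1.48 in the other, so Sox10 was not compared. Of 10 endothelial markers, 2 were expressed and both were lower (Esam and Flt4), with sums of 2.31 and 88.5 and with Cldn5, Emcn and Tie1 at 0 in both.

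Fibroblast markers were mixed, with 3 of 9 expressed members higher (Mfap5, Ly6a and Thy1) and 4 lower (Cd34, Dcn, Fap and Pdgfra), and sums of 4149 and 2619. In the pericyte list, the receptor gene Pdgfrb was higher (57.3 and 8.25), and Tbx2 (0.432 and 17.2) and the targeted gene Cd248 were lower. The sums over that list were 799 and 1431, of which Acta2, which encodes smooth muscle actin, made up 726 and 1367. Without Acta2, left out after seeing the data, they were 72.8 and 64.1, so the direction of the sum rests on that gene. Of 10 myeloid markers, 5 were expressed and 2 of them higher in the null culture, with sums of 25.2 and 17.6 and with Adgre1, C1qa, Itgam and Tyrobp at 0 in both. The part of any of these in the values of Itga3, Itga7, Itga8, Itga11 or Tln2 was not tested. In bulk RNA, fewer cells of a kind and less RNA per cell cannot be told apart.

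The integrin genes outside the 34 are those of leukocytes. Of 9 such genes, which take in the kindlin Fermt3 and the parvin Parvg, only Itgb2 reached an FPKM of 1, at 3.62 in the null culture and 1.58 in the heterozygous culture. Its alpha partners Itgam and Itgad were listed at 0 in both libraries, Itgal had 2 reads in the null culture alone, and Itgax was at 0 in the null culture. Itgae had 20 reads in each library.

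Of 68 other focal adhesion genes (among them actin crosslinkers, further adaptors and Src family kinases), 65 were expressed. Of these, 2 were counted as higher in the null culture and 9 as lower, with a median log2 ratio of -0.01. The shares over all genes compared were 6.84% and 6.88%. The higher genes were Enah, which encodes the actin polymerase Mena (70.0 in the null culture and 19.8 in the other), and the kinase gene Fyn (60.3 and 25.5). The lowest ratios belonged to the stress fibre adaptor Sorbs2 (2.58 and 30.6), the actin-binding LIM protein gene Ablim1 (3.31 and 23.98) and Ptk2b, which encodes Pyk2, the relative of focal adhesion kinase (8.42 and 39.2). Tns4, a tensin without an actin-binding end that is known from epithelia, had 0.588 and 5.49.

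Of 32 expressed genes for integrin ligands, 10 were counted as higher in the null culture and 3 as lower. Over all genes compared, the shares were 6.84% and 6.88%. Among 12 expressed RGD ligands and their partners, 3 were higher and 1 lower, with a median log2 ratio of 0.44. Fn1, which encodes fibronectin, the ligand of the Itga5 receptor, had an FPKM of 1115 in the null culture and 191.5 in the heterozygous culture. The null level was 5.82-fold higher, with an interval of 5.73 to 5.91. Tnc (47.1 and 6.63) and Fbn1 (42.5 and 13.1) were also higher and Tgfb3 was lower (6.02 and 18.5). Vtn, which encodes vitronectin, was listed at 0 in both.

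A separate list held 4 further ligands of the alpha 4 and alpha 9 chains, of which 3 were expressed and counted as higher. They were Svep1 (8.93 and 0.0404), Vcam1 (127 and 46.9) and Emilin1 (146 and 57.9). These chains also bind products of the RGD list, where Tnc and Fn1 were higher and Spp1, which encodes osteopontin, lay within 2-fold (316 and 186). The receptor chains themselves were not higher there, with Itga9 at 2.88 and 5.26. Of 10 collagen genes, 3 were higher (Col3a1, Col6a3 and Col1a2, the latter at 1832 and 853) and Col4a1 was lower (157 and 318), with a median of 0.32. Of 7 expressed laminin chains, Lama4 was higher (28.8 and 1.87), Lamb3 was lower (0.165 and 1.68) and 5 lay within 2-fold, with a median of 0.15. Lama5 and Lamb2, chains of the laminins that Itga3 binds, had 38.2 and 68.5, and 148 and 275. In the same list Lamb1 (180 and 103) and Lamc1 (150 and 91.5) went the other way. Of the 7 expressed laminin chains, 4 had a log2 ratio above 0 and 3 below, so the list did not follow Itga3 as a whole. Tns4, Vtn, Spp1, Lama5, Lamb2, Lamb1 and Lamc1 were picked after their values were seen.

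**Figure D5:**
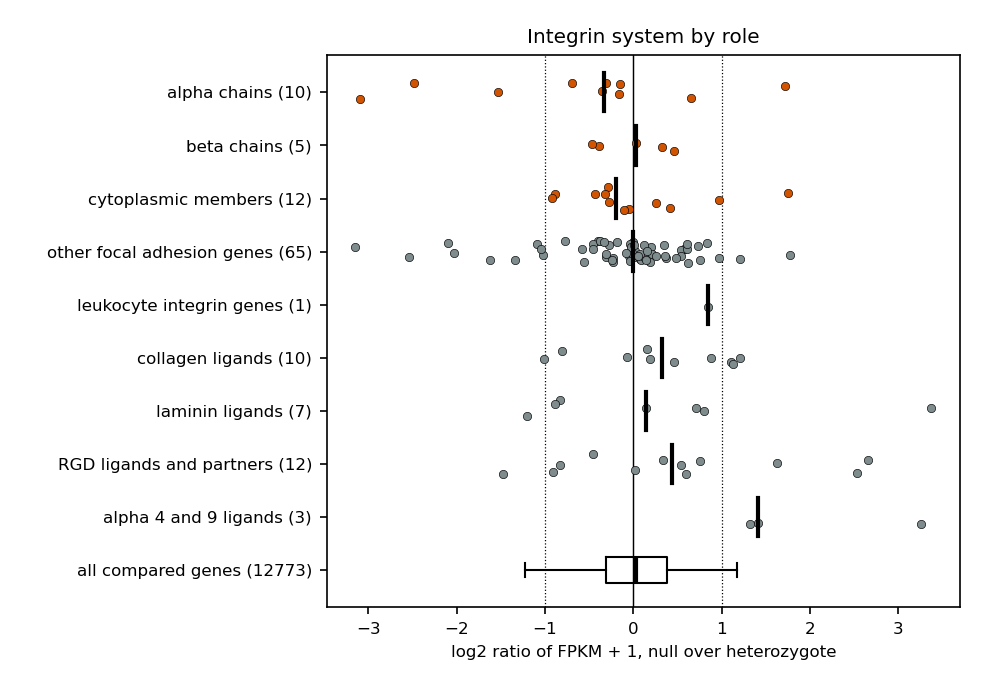
Log2 ratio of FPKM + 1, null over heterozygote, for each expressed gene by role, with the 34-gene set in orange and related lists in grey. Black bars are medians, the box spans the middle quartiles of all 12773 compared genes with whiskers at percentiles 5 and 95, and dotted lines mark 2-fold. Alpha chains and matrix ligands spread past the 2-fold lines, and the 5 beta chains stay inside them.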

How the data were processed

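The authors deposited 1 table of FPKM, holding a value for each of 52636 Ensembl IDs in each of the 2 libraries. Per the submitters' processing notes, Bowtie2 (2.2.3) and the genome build mm8 were used. No label used here names the counting tool or the annotation. The column ending in N was read as null and the other as heterozygote. IDs were matched to GENCODE M21 (GRCm38), which gave a symbol for 52489. Of symbols with several rows, the row with the highest mean was kept. That annotation served for names, chromosomes, transcript lengths and exon overlaps.

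Reads were worked back as follows. For all 18043 genes above 0 in both libraries, the ratio of the columns was a ratio of whole numbers within a relative tolerance of 1e-12, times a constant of 1.21. Genes with 1 annotated transcript then gave the totals, which came out whole. Per gene, the smallest whole length nearest the mean transcript length set the reads, and for Itgb5, Itgb7 and Fermt2 these are a minimum. On simulated data in which each gene had its mean transcript length, the reads of 99.55% of 17367 genes were recovered. That does not test the length itself. FPKM are not counts and there is 1 library per genotype, so no count model and no test was run. Intervals are exact Poisson for levels and from an exact binomial share (Clopper-Pearson) for folds.

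The comparison used log2(FPKM + 1), a minimum FPKM of 1 and a 2-fold mark. Alternatives were pseudocounts of 0.1 and 5, no minimum, a minimum of 5, equal sums, equal upper quartiles and centring by chromosome. All 34 members were named, and of each pathway list the genes with up to the 3 highest and 3 lowest ratios past 2-fold. Cell-type markers were outside this rule, and those named were chosen after their values were seen. The members and lists were chosen with earlier results of these data known. Python 3.11.15, pandas 2.3.3 and SciPy 1.17.1 were used.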

Additional observations from a re-analysis of the deposited data

How the results depend on the processing

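The 3 counted lower members (Itga3, Itga7, Itga8) and the 2 counted higher members (Itga11, Tln2) were the same with a pseudocount of 0.1, with no minimum, with equal upper quartiles and after centring by chromosome. With a pseudocount of 5, and likewise with a minimum FPKM of 5, only 1 member (Tln2) was counted as higher and 2 (Itga3 and Itga7) as lower. A minimum of 5 leaves out Itga8 and Itga11 by construction. With equal sums, Tns1 joined the higher members. The median over the members ranged from -0.28 to -0.14 over the 7 alternatives. No sign of a counted member reversed under any of these. Over all genes, 874 were counted as higher and 879 as lower, against 400 and 369 with a pseudocount of 5 and 622 and 523 with a minimum FPKM of 5. With a pair minimum of 5 the heterodimers numbered 5 (null) and 7 (heterozygote), and with 0.5 they numbered 13 and 14. Per longest annotated transcript, an alternative chosen after seeing the data, collagen-binding chains held 3.58% and 1.07% of the alpha pool, the alpha 4 and 9 chains 0.762% and 0.8198%, and RGD-binding chains 57.55% in the heterozygote library. No paired analysis was possible because there is 1 library per genotype. Depth limits the low members most, such as Itga8 at 4 and Itgb8 at 15 reads in the null library.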
